A study of Mus musculus with 4 samples.

Results

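The genes described here belong to the EGF receptor system of the mouse colon. They are the receptors *Egfr*, *Erbb2* and *Erbb3*, the ligands *Areg*, *Ereg* and *Hbegf*, and the feedback genes *Lrig1*, *Spry2*, *Dusp6* and *Dusp16*. These 10 genes were chosen by name in the array files, which gave 24 of 41174 gene probes on 51 spots per array. *Dusp16* was selected on its rise in the *Rspo3* KO on these same arrays, so its values there are given as a description and without a test. Levels were measured on 4 dual-color arrays, and 15292 genes in all were measured in the *Rspo3* KO experiment and 15775 in the Axin2 experiment.

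The KO experiment set RNA from the colon of Myh11CreErt2/Rspo3 fl/fl mice (*Rspo3* KO) against that of Myh11CreErt2/Rspo3+/+ littermates as controls. Both genotypes received tamoxifen (4 mg per 25 g body weight), and RNA was taken 2 weeks later. The array labels name distal colon, and the methods of the study name colon. Each channel held 1 mouse, and 2 pairs of mice were compared on 2 arrays with the dyes exchanged. In the second experiment, colon epithelial cells of Axin2CreErt2/Rosa26-tdTomato mice were sorted 24 h after tamoxifen by the epithelial surface antigen ESA and by tdTomato into Axin2+ and Axin2- cells. Cells of 3 mice were pooled. The 2 arrays of this experiment held the same pair of RNA pools with the dyes exchanged, which makes 1 replicate. All mice were of strain C57BL/6, and the methods give males of 6 to 8 weeks. In the KO, the Cre is driven by *Myh11*, a gene of smooth muscle and myofibroblasts, so deletion is driven in those cells and not in the epithelium. In the sorted cells, tdTomato marks cells in which *Axin2* was active when tamoxifen was given, and a cell keeps the mark after it leaves that state.

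The EGF receptor system is one of the main growth signals of the intestinal crypt. Ligands such as amphiregulin, epiregulin and HB-EGF are made as membrane proteins, are cut from the cell surface by ADAM proteases, and bind EGFR, which pairs with itself or with ERBB2 or ERBB3. The receptors signal through RAS, RAF and MEK to the kinase ERK. ERK activity switches on its own inhibitors, among them the phosphatase DUSP6 and the Sprouty proteins, while LRIG1 acts on the receptors themselves. *Lrig1* also marks stem and progenitor cells near the base of the colon crypt.

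In each channel, 53.1% to 60.3% of gene spots exceeded background clearly (the scanner software's flag for well above background). Taken across genes, which are no replicates, the 2 KO arrays had a Pearson's r of 0.03 and the 2 Axin2 arrays of 0.92. The share of genes with a common direction was 44.1% and 82.7%. Of the 2 *Rspo3* probes, 1 was well above background, on the second KO array alone, where its log2 ratio of KO over control was 0.17. Where these probes lie relative to the deleted part of *Rspo3* is not given in the sources used here, so KO means the channels labelled as *Rspo3* KO. Of 6 crypt base markers, 6 were lower in the KO in both pairs (median log2 ratio -1.22), and their summed linear level was 3250 and 3590 in the KO against 8460 and 7080 in the controls. In the Axin2 experiment, 5 of 6 crypt base markers were higher in Axin2+ cells past 1.5-fold on the mean of both arrays, beside 7.85% of all genes. *Axin2*, whose Cre defines the sort, is among these 5, and the exception was *Ascl2* (0.02 and -0.16). Of the surface colonocyte markers, 5 of 5 were lower past 1.5-fold, beside 6.97% of all genes.

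In the *Rspo3* KO, the ligand *Areg* and the ERK phosphatase *Dusp6* were about as much higher as each other, with mean log2 ratios of 1.01 and 0.99, while the receptors stayed close to 0 or slightly below it. By limma with Benjamini-Hochberg adjustment over all genes, 0 of the 9 members other than *Dusp16* passed an adjusted p of 0.05, beside 0.229% of all genes tested. At an unadjusted limma p under 0.05 there were 2, *Areg* and *Dusp6*, beside 707 of all 15292 genes. A fit over all 4 arrays with a term for the dye called the same 2 genes, with adjusted p of 0.0375 for *Areg* and 0.0142 for *Dusp6* in limma, the lowest of all alternatives, whose highest was 0.99998 for each. That fit takes part of its spread from the Axin2 arrays, which are technical repeats, and the KO pairs alone gave 0.516 and 0.34 in limma. By size alone, 2 of these 9 members were higher past 1.5-fold in the mean and above 0 in each pair, beside 1.84% of all genes, and 0 were lower, beside 2.46%. The median log2 ratio of the 9 members was 0.12, and that of all genes was -0.01. Fewer cells of a type and less RNA per cell cannot be told apart in such bulk tissue.

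**Figure D1:**
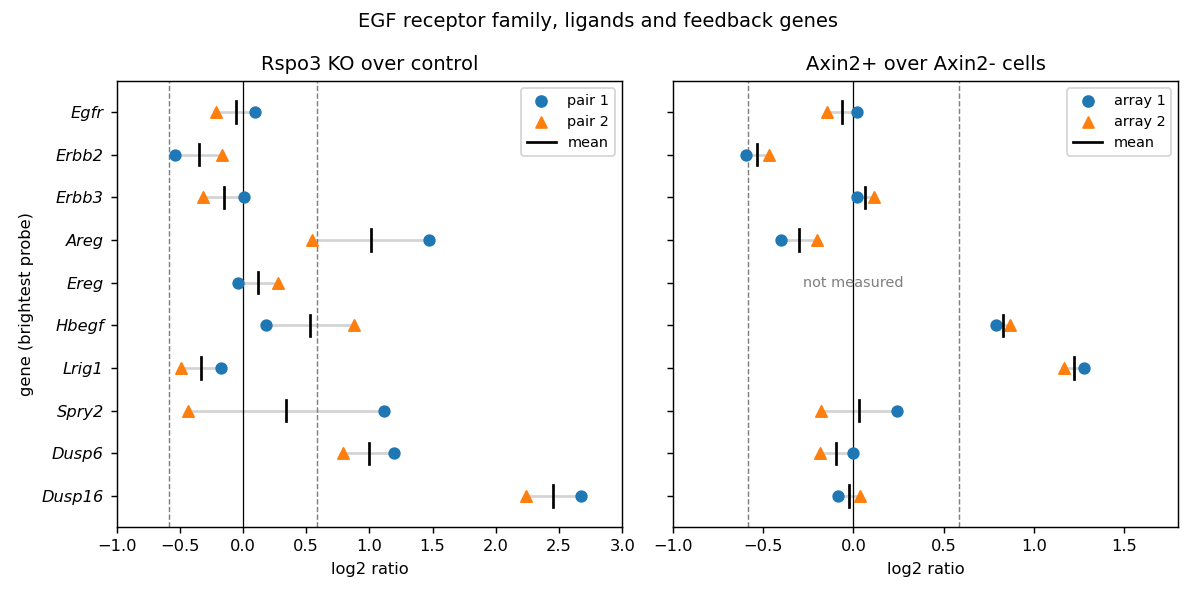
Log2 ratio of each of the 10 genes by its brightest probe, for Rspo3 KO over control (left) and Axin2+ over Axin2- cells (right). Circles and triangles are the 2 arrays of an experiment, black bars their mean, and dashed lines 1.5-fold. In the KO, the means of Areg, Dusp6 and Dusp16 lie past the line and Spry2 lies on both sides of 0. In Axin2+ cells, Lrig1 and Hbegf lie past it on both arrays.

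In Axin2+ cells a different pair of members stood out, the receptor inhibitor *Lrig1* and the ligand *Hbegf*. Of 9 members measured, these 2 were higher past 1.5-fold in the mean and above 0 on each array, beside 7.85% of all genes, and 0 were lower, beside 6.97%. Under median centring of each array in place of loess 0 members passed, with means of 0.93 for *Lrig1*, whose arrays then had opposite signs, and 0.55 for *Hbegf*, and with the software's ratios 3 did. With 1 replicate there is no test of these differences, and the 2 arrays show only how well the hybridisation repeats. The median log2 ratio of the 9 members was -0.02, and that of all genes was -0.01.

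Amphiregulin, encoded by *Areg*, is a low-affinity ligand of EGFR. Its single probe lies on chromosome 5 (mm9, chr5:91570090-91570149). Its log2 level was 9.74 in the control and 11.22 in the KO of pair 1, and 10.18 in the control and 10.73 in the KO of pair 2. The KO was above the control in both pairs, and the gap was wider in pair 1. Of all genes, 44.1% had a common direction in the 2 pairs. The mean log2 ratio was 1.01 ± 0.65 (SD, n = 2; limma standard error 0.28), a 2.02-fold difference with an adjusted p of 0.516 in limma. Pair 2 alone, at 0.55, was short of 1.5-fold. In the sorted cells *Areg* went the other way by a small amount, with a log2 level of 9.52 and 9.53 in Axin2+ cells against 9.92 and 9.73 in Axin2- cells. The log2 ratios were -0.40 and -0.20, which is short of 1.5-fold.

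HB-EGF, the product of *Hbegf*, binds EGFR as well as ERBB4. Its log2 level in Axin2+ cells was 12.92 on array 1 and 12.88 on array 2, against 12.13 and 12.01 in Axin2- cells. Both arrays thus placed the Axin2+ pool above the Axin2- pool, with log2 ratios of 0.79 and 0.87 and a mean of 0.83, or 1.78-fold. In the KO experiment its log2 level was 10.58 against 10.40 in the control of pair 1 and 10.77 against 9.89 in pair 2. The KO lay above the control in both pairs here too, but by little in pair 1. The mean log2 ratio was 0.53 ± 0.50 (SD, n = 2), with an adjusted p of 0.9998 in limma.

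Epiregulin, the product of *Ereg*, was near the limit of detection. One of its 2 probes (chr5:91521659-91521720 of mm9) did not clear background in a single channel of the 4 arrays. The other (chr5:91480914-91480973) was well above background in the KO experiment, with log2 ratios of -0.04 and 0.28, and cleared background in only 1 channel of the sorted cells. The files of the Axin2 arrays list this second probe under an uncharacterised locus and not under *Ereg*, so its value may not be that of epiregulin.

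**Figure D2:**
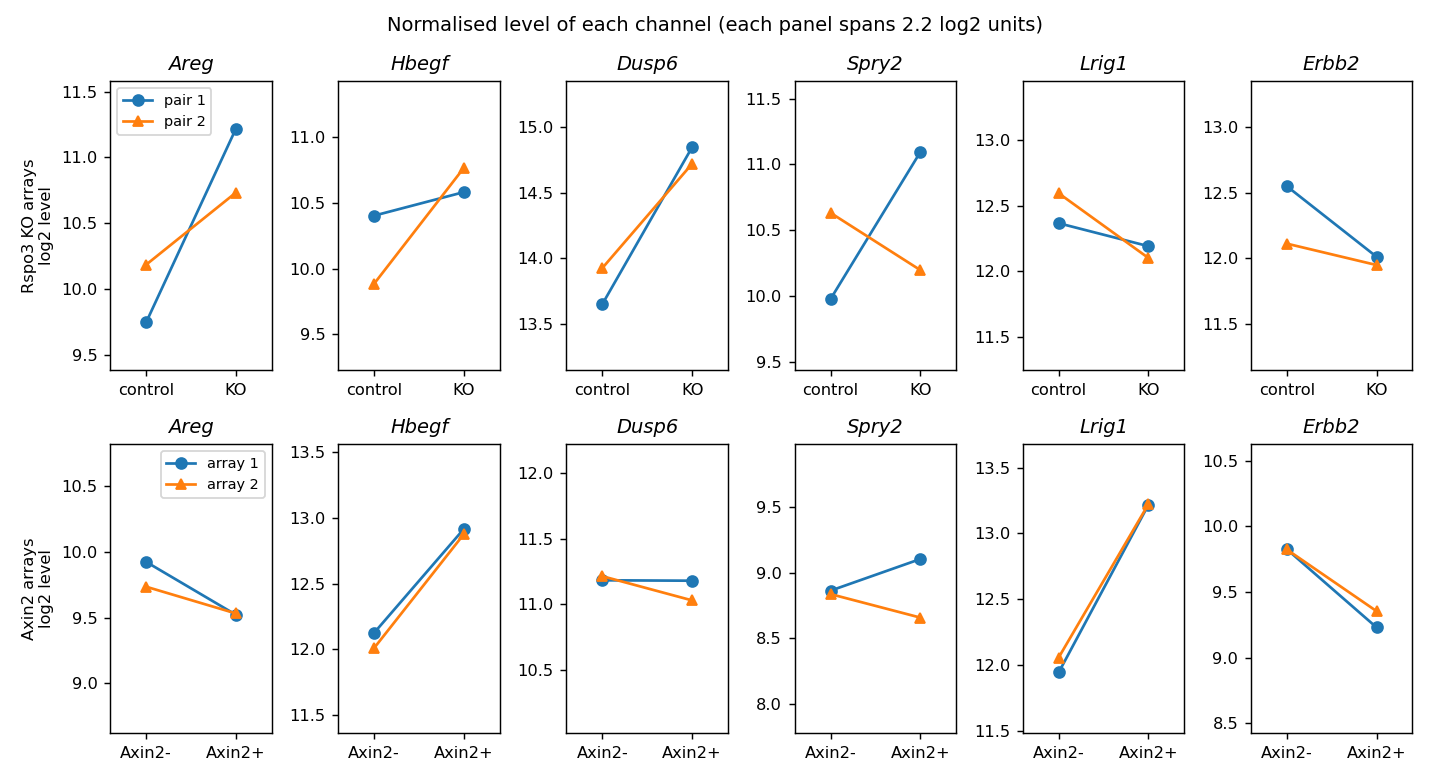
Normalised log2 level of 6 members in each channel, for the Rspo3 KO arrays (top) and the Axin2 arrays (bottom). Each line joins the 2 channels of 1 array, and every panel spans the same range, so slopes can be compared within an experiment. Areg and Dusp6 slope upward in both KO pairs and Spry2 slopes both ways. Hbegf and Lrig1 slope upward in Axin2+ cells.

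DUSP6 removes phosphate from ERK, and *Dusp6* is itself a target of ERK signalling. Its single probe lies at chr10:98729985-98730044 of mm9. Its log2 level was 13.65 in the control and 14.85 in the KO of pair 1, and 13.93 in the control and 14.72 in the KO of pair 2. The KO was above the control in both pairs, by 1.19 and 0.79. Of all genes, 44.1% had a common direction, up or down, in the 2 pairs. The mean log2 ratio was 0.99 ± 0.28 (SD, n = 2; limma standard error 0.24), or 1.99-fold, with an adjusted p of 0.34 in limma. *Dusp6* in the sort had a log2 level of 11.18 and 11.03 in Axin2+ cells and of 11.18 and 11.21 in Axin2- cells, and its mean log2 ratio was -0.09.

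LRIG1 is a transmembrane protein that binds ERBB receptors and promotes their removal. Its probe lies at chr6:94554681-94554740 of mm9. The log2 level of *Lrig1* in Axin2+ cells was 13.22 on both arrays, against 11.94 and 12.06 in Axin2- cells. The log2 ratios were 1.28 and 1.17, with a mean of 1.22, and the 2.33-fold difference was the largest of the 9 members in this experiment. In the KO, *Lrig1* was slightly lower in both pairs. Its log2 level was 12.19 against 12.37 in the control of pair 1 and 12.10 against 12.59 in pair 2, and the mean log2 ratio of -0.33 ± 0.22 (SD, n = 2) had an adjusted p of 0.9998 in limma.

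Sprouty 2, the product of *Spry2*, restrains signalling between the receptors and ERK. Its brighter probe (chr14:106291385-106291444 of mm9) gave opposite directions in the 2 KO pairs. The log2 level was 11.09 in the KO and 9.98 in the control of pair 1, and 10.20 in the KO and 10.63 in the control of pair 2. The Cy5 channel, which held the KO in pair 1 and the control in pair 2, was the higher one on both arrays, by 1.12 and 0.44. On the Axin2 arrays Cy5 was again the higher channel, by 0.24 and 0.18, so that the log2 ratios of Axin2+ over Axin2- cells were 0.24 and -0.18. The dye term of *Spry2* in the 4-array fit was 0.49 (adjusted p = 0.742 in limma). Pair and dye orientation cannot be told apart in the KO experiment. The second *Spry2* probe was well above background on the second KO array alone, with a log2 ratio there of -0.18.

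Among the receptors, *Erbb2*, which encodes the partner receptor with no known ligand of its own, had ratios below 0 in both experiments. Its brighter probe (chr11:98298103-98298162 of mm9) was printed 10 times per array. In the KO experiment its log2 level was 12.01 against 12.55 in the control of pair 1 and 11.95 against 12.11 in pair 2. The KO was below the control in both pairs, by less in pair 2. The mean log2 ratio was -0.35 ± 0.26 (SD, n = 2; adjusted p = 0.9998 in limma). In the sorted cells the log2 ratios were -0.59 and -0.47. Spots of this probe within an Axin2 array had an SD of 0.04 on array 1 and 0.03 on array 2, a spread that measures printing and scanning and no biology. The mean of -0.53 lies just inside 1.5-fold, and it passed 1.5-fold with the software's own ratios, where it was -0.60. The dimmer *Erbb2* probe (chr11:98295824-98295883) gave -0.33 and -0.31 in the sorted cells, but 0.19 and -0.02 in the KO pairs.

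EGFR itself, the receptor shared by these ligands, showed no common direction in the KO. The brightest of 6 *Egfr* probes (chr11:16813815-16813874 of mm9) had a log2 level of 11.46 against 11.36 in the control of pair 1 and 11.30 against 11.51 in pair 2. Its mean log2 ratio was -0.06 ± 0.22 (SD, n = 2; limma standard error 0.23; adjusted p = 0.9998 in limma). The means of the 5 probes measured in the KO lay between -0.07 and 0.08.

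Between Axin2+ and Axin2- cells the *Egfr* probes disagreed with each other. Array files list 2 probes for transcript variant 1 and 2 for transcript variant 2 of *Egfr*. The variant 1 probes had mean log2 ratios of -0.06 (the brightest probe) and -0.09. The variant 2 probe at chr11:16787385-16787444, printed 10 times per array, gave -0.69 on each of both arrays, with an SD over spots of 0.05 and 0.08, and its highest spot stood at -0.58. With the software's ratios its values were -1.11 and -1.004. The other variant 2 probe (chr11:16783545-16783604) gave -0.28 and -0.35. A probe with no variant listed (chr11:16817630-16817689), named *Egfr* in the KO files alone, went the other way, at 0.15 and 0.50. With the software's ratios it had 0.60 and 1.03. The last probe (chr11:16655638-16655697), also with no variant listed, gave -0.05 and 0.14. Of the 22 member probes measured in the sorted cells, 1 was lower past 1.5-fold, beside 5.75% of all probes. It was the variant 2 probe at chr11:16787385-16787444. The *Lrig1* and *Hbegf* probes were the 2 that were higher, beside 6.99%. The gene-level value of *Egfr* rests on the brightest probe and so does not carry this difference. *Egfr* probes of both variants that gave unlike values are shown by their own sequence, as given in the array files, limited to the first 30 of 60 bases. No 2 of the 6 *Egfr* probes share a stretch of over 8 bases.
Variant 2, chr11:16787385-16787444, first 30 bases: caagaggttaacactacggactagccattc
Variant 1, chr11:16813815-16813874, first 30 bases: gttgcaagccactctaactgtagcaatgaa
Variant 1, chr11:16812181-16812240, first 30 bases: tggagcttatatttagggaactttgggatt

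ERBB3 binds neuregulins and signals through its partners, since its own kinase is nearly inactive. The brightest of 5 *Erbb3* probes (chr10:128004749-128004808 of mm9) had log2 ratios of 0.01 and -0.31 in the KO pairs and of 0.02 and 0.12 in the sorted cells. The other 4 probes were lower in Axin2+ cells on both arrays, with means from -0.31 to -0.09. The files of the Axin2 arrays list the brightest probe under a transcript identifier with no gene symbol. When only the names of those files were used, a choice made after seeing the data, *Erbb3* was represented by another probe and its mean log2 ratio in the sorted cells was -0.26. Among the 4 lower probes 2 are not separate measurements, since they share 40 of their 60 bases. Both are shown with the shared stretch in capitals.
chr10:128009195-128009254: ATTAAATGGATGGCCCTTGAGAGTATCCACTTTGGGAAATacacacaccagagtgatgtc
chr10:128009215-128009503: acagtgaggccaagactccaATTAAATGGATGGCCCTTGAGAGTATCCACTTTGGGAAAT
They gave -0.26 and -0.31 in the sorted cells. The second is listed over 289 bases, more than its own length.

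**Figure D3:**
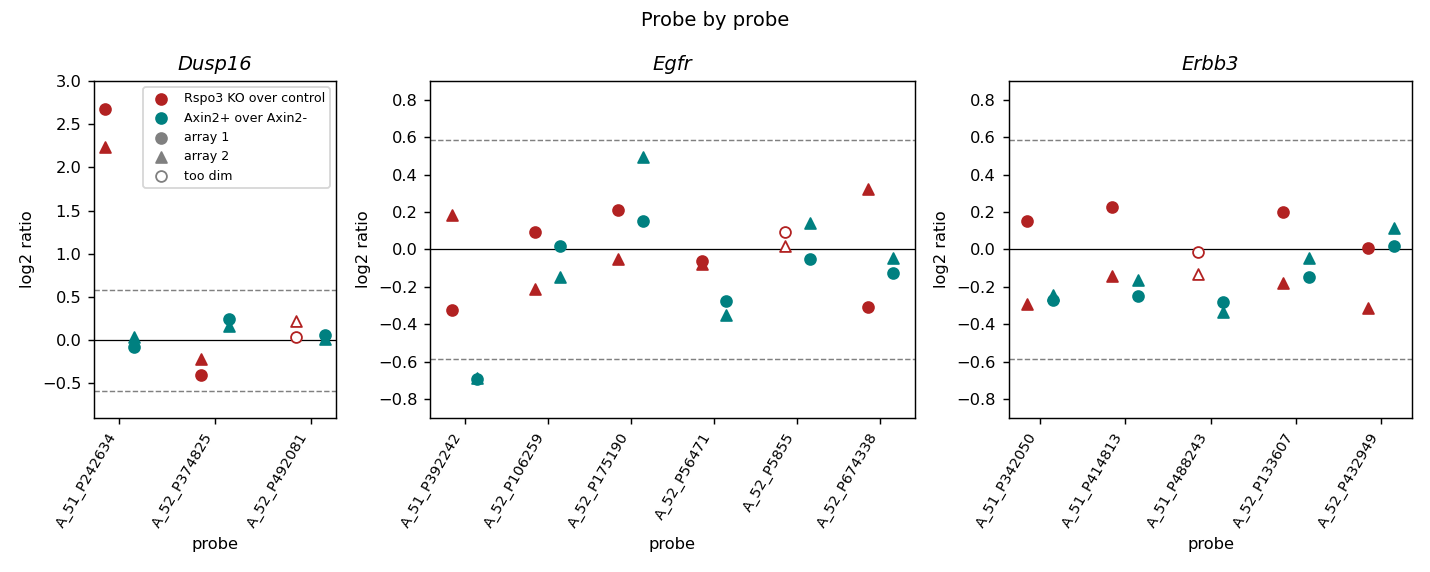
Log2 ratio of every probe of Dusp16, Egfr and Erbb3, in the Rspo3 KO experiment (red) and the sorted cells (teal), with probes named by their array identifiers. Circles are array 1, triangles array 2, open symbols probes too dim to be used, and dashed lines 1.5-fold. The leftmost Dusp16 probe lies far above the other 2 in the KO, and the leftmost Egfr probe, listed for variant 2, lies below the others in the sorted cells.

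DUSP16 is a phosphatase that acts mainly on the stress kinases JNK and p38. Its 3 probes were read one by one. The probe that led to the choice of *Dusp16* is listed for a complete coding sequence of the A1 isoform. Its log2 level was 8.69 in the control and 11.36 in the KO of pair 1, and 8.84 in the control and 11.07 in the KO of pair 2. The log2 ratios were 2.67 and 2.24, with a mean of 2.45 or 5.48-fold. The second probe, which the files of the Axin2 arrays list under a transcript identifier with no gene symbol, did not follow. It was well above background in every channel, and its log2 level was 7.64 in the KO against 8.04 in the control of pair 1 and 7.39 against 7.61 in pair 2, giving a mean of -0.31. The last probe was not well above background on the first KO array, and its log2 ratios were 0.04 and 0.22. The mean over the 2 measured probes was 1.07, and the mean of the first probe was 1.81 when the background was fitted to all spots. Between the sorted pools the 3 probes gave means of -0.02, 0.21 and 0.04. The probes are shown because their values differ this much, the first 2 limited to the first 30 of 60 bases.
First probe, chr6:134665656-134665696, first 30 bases: gtacaaaatggtgattttgagcaaaactag
Second probe, chr6:134687549-134687608, first 30 bases: ggctcttagccagaataatgacttaagttt
The last probe, chr6:134668003-134668062: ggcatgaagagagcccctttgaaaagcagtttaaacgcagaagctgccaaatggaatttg
The longest stretch that any of them share is 6 bases. The listed position of the first probe covers 41 of its 60 bases. No annotation of mm9 was used here, so exon, intron or UTR is not given for any probe.

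Other genes of the pathway were read from 5 lists holding 58 genes. In the KO, 0 of the 52 measured passed limma's adjusted p of 0.05, beside 0.229% of all genes. At an unadjusted limma p under 0.05 there were 6, beside 707 of all 15292 genes. By size, 6 were higher past 1.5-fold in the mean, beside 1.84% of all genes, and 2 were lower, beside 2.46%. Each had 1 direction in both pairs, and the median log2 ratio of the 52 genes was 0.06. *Egf*, the founding ligand of the family, was the lowest, with log2 ratios of -1.47 and -0.76 and a mean of -1.12 (adjusted p = 0.314 in limma). It passed the threshold in the fit with a dye term (adjusted p = 0.0111 in limma) and with an offset of 16 in the background correction, where its mean was -1.39 (adjusted p = 0.0299 in limma).

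Among the other negative regulators, 3 of 19 were higher past 1.5-fold, beside 1.84% of all genes, each by unequal amounts in the 2 pairs. *Spry4*, a relative of *Spry2*, had log2 ratios of 0.18 and 1.14, *Dusp1* of 1.12 and 0.13, and *Errfi1*, an inhibitor of the EGFR kinase, of 0.92 and 0.33. *Dusp2* was the 1 that was lower, beside 2.46% of all genes, at -1.61 and -0.27. *Dusp8* had the widest gap, at 2.50 and -0.91. In the cascade from adaptors to ERK, 1 of 16 genes was past 1.5-fold, *Map2k1* (MEK1), at 0.60 and 1.03 (adjusted p = 0.596 in limma). Of 4 sheddase genes none passed 1.5-fold, and *Adam10* had the largest mean, 0.26.

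The ERK response genes split by pair. Of 8 measured, *Egr1* (0.64 and 0.77) and *Etv4* (0.46 and 1.08) were higher past 1.5-fold in the mean, beside 1.84% of all genes. The other 6 were lower in pair 1 and higher in pair 2. The list's median log2 ratio was -0.34 in pair 1 and 0.77 in pair 2. *Fos* had -0.76 and 1.16, and *Junb* had -0.34 and 0.87. Since the KO was labelled with Cy5 in pair 1 and Cy3 in pair 2, these genes were lower in the Cy5 channel of both arrays, for *Fos* by a mean of -0.96. On the Axin2 arrays the Cy5 channel was above Cy3 for *Fos* by a mean of 0.06. Marker lists differed between the same pairs. The 5 proliferation markers had a median of -0.61 in pair 1 and 0.42 in pair 2, and the 3 surface colonocyte markers measured had 0.70 and -0.33. Their part in the ERK response genes' values was not tested.

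Markers of other cells were read in the same channels, where 44.1% of all genes had a common direction in the 2 pairs. Of the B cell markers, 3 were measured and 2 were lower in both pairs, with a median log2 ratio of -0.64. *Ms4a1*, which encodes the B cell antigen CD20, fell, with log2 ratios of -2.75 and -2.27 (adjusted p = 0.0138 in limma), and no other marker gene passed. The list's summed linear level was 1460 and 1320 in the KO against 2950 and 1650 in the controls, and *Cd79a* was not well above background. Macrophage markers were higher in both pairs for 4 of 5 genes (median 0.20), with a summed level of 13000 and 10600 in the KO against 11200 and 8070. Fibroblast markers were higher in both pairs for 2 of 5 (median 0.29), with a summed level of 105000 and 117000 in the KO against 90300 and 89200. Smooth muscle markers were higher in both pairs for 3 of 4 (median 0.24), and the 3 epithelial markers measured had a median of -0.04. Of the macrophage, fibroblast and smooth muscle markers, *Adgre1* alone passed 1.5-fold in the mean, at 0.72 and 0.66, beside 1.84% of all genes. The part of these cell types in the values of *Areg*, *Dusp6* and *Hbegf* was not tested.

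**Figure D4:**
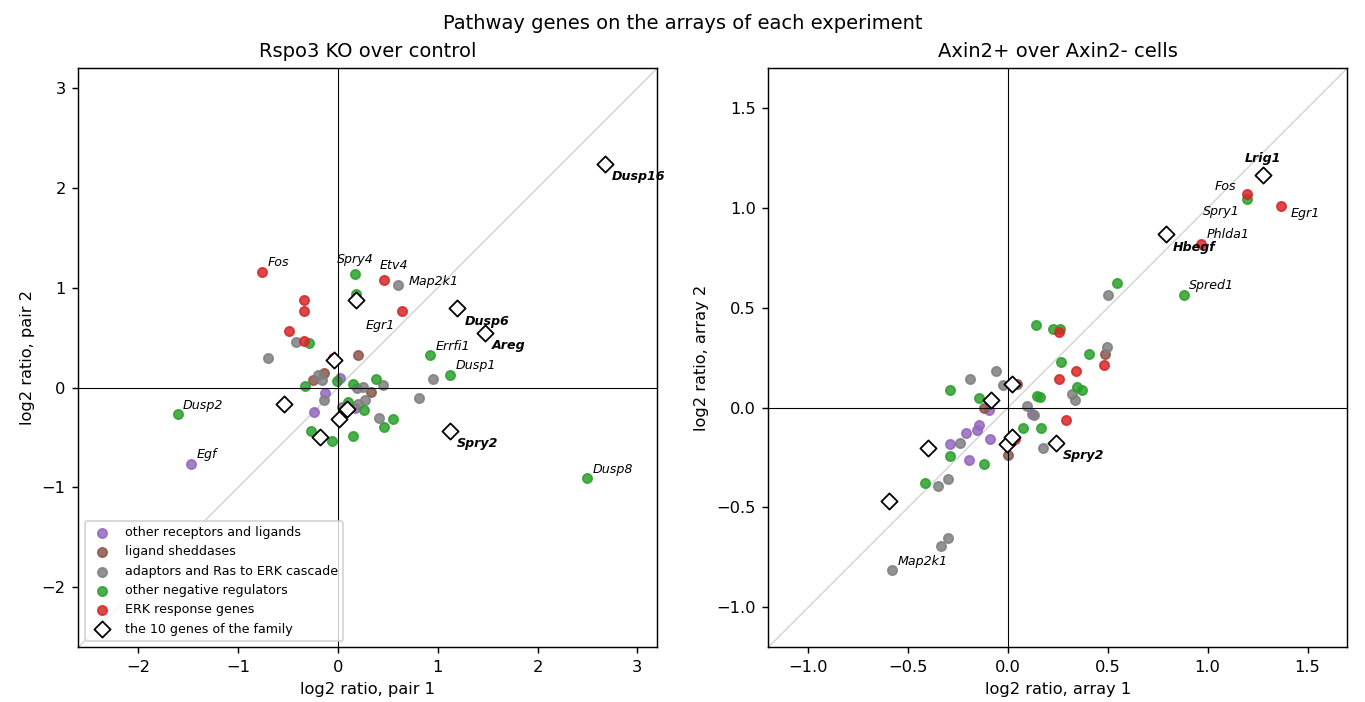
Log2 ratio on one array against the other for the genes of 5 pathway lists (colours) and the 10 family genes (diamonds), for Rspo3 KO over control (left) and Axin2+ over Axin2- cells (right). Genes on the grey diagonal gave the same value on both arrays. The KO pairs scatter widely, with Fos and Spry2 in opposite quadrants, and the Axin2 arrays follow the diagonal, with Lrig1, Fos, Spry1 and Egr1 at the top.

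In the sorted cells, 56 of the 58 pathway genes were measured. By the mean of both arrays, 5 were higher past 1.5-fold in Axin2+ cells, beside 7.85% of all genes. Another 1 was lower, beside 6.97%, and each had the same sign on both arrays. This count of 6 was 15 with the software's ratios and 0 under median centring. The median log2 ratio of the 56 genes was 0.05. Of the 9 ERK response genes, 3 were higher past 1.5-fold, again beside 7.85% of all genes. They were *Egr1* (1.37 and 1.01), *Fos* (1.20 and 1.07) and *Phlda1* (0.97 and 0.82), and the list's median was 0.32. Of the 19 other negative regulators measured, *Spry1* (1.19 and 1.05) and *Spred1* (0.88 and 0.56) were higher past 1.5-fold, beside 7.85% of all genes. Both encode inhibitors of RAS to ERK signalling. *Errfi1* came close with 0.55 and 0.62, and *Dusp10* was the lowest at -0.42 and -0.38.

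The cascade genes ran in both directions in the sorted cells. *Map2k1* was lower past 1.5-fold, at -0.58 and -0.82, *Hras* had -0.34 and -0.70, *Mapk3* (ERK1) had -0.30 and -0.65, and *Braf* was on the other side at 0.50 and 0.56. Among sheddase genes, *Rhbdf1* had the largest mean, 0.38. Of the 8 other receptors and ligands, 7 were slightly lower in Axin2+ cells on both arrays, none past 1.5-fold, with *Nrg1* lowest at a mean of -0.24 and *Tgfa* at -0.23. Of other cell types, the endothelial markers *Pecam1*, *Cdh5* and *Kdr*, the fibroblast markers *Col1a1* and *Pdgfra* and the muscle markers *Myh11* and *Des* did not clear background in any channel of the sorted cells, while the summed level of the muscle list was 7340 and 5920 in Axin2+ cells against 5120 and 5080 in Axin2- cells. Their part in these values was not tested.

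Across the 4 arrays, the pattern of *Egfr* was shared most closely by *A430046D13Rik*, *Paqr3* and *Snx9* among 13551 other genes, with Euclidean distances between log2 ratios of 0.05, 0.06 and 0.07. These genes lie near 0 on all 4 arrays, where many genes lie. For *Dusp16*, read by its brightest probe, the nearest genes were *Gdpd3*, *Cdx2* and *Ddah1*, at distances of 0.50, 0.78 and 0.81. *Dusp16* was chosen on the KO values of this probe, so genes near it are others with high KO ratios. The second *Dusp16* probe, named so in the KO files alone, had a mean of -0.31 in the KO. In the KO pairs the log2 ratios were 2.41 and 1.91 for *Gdpd3*, 2.33 and 1.91 for *Cdx2* and 1.97 and 2.03 for *Ddah1*. *Cdx2*, an intestinal transcription factor, had 0.31 and 0.52 in the sorted cells. A link between these genes and *Dusp16* was not tested.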

How the data were processed

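The authors deposited scanner output for 4 dual-color arrays, which gives for each spot and dye a linear mean intensity and its background. The deposited files also hold a log10 ratio (Cy5 over Cy3) with its error, made by Agilent Feature Extraction 11.5.1.1. The deposited series table held the same log10 ratios within 1e-06. Positions are those of mm9 in the array files. The software's p-values were not used.

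Intensities were corrected with limma (version 3.58.1 in R 4.3.3, normexp, offset 50), leaving spots with background outliers (66 and 6 on the KO arrays) out of the fit, and ratios were normalised by loess. Outlier spots (510, 443, 131 and 124 per array) were left out. Ratios were turned to *Rspo3* KO over control and Axin2+ over Axin2-. Levels are log2 intensities after quantile normalisation of mean intensities between the arrays of an experiment. Levels of different probes were not compared. A probe was measured if well above background in 1 or both channels on both arrays. The brightest probe with usable spots on both arrays stood for a gene, which was left out if that probe was not measured. The offset draws ratios of dim probes towards 0. Of 41174 probes, 28473 were named by accession, 5512 by symbol and 336 by synonym through RefSeq (assembly GRCm38.p6), and 6853 kept the file name. Of the 24 member probes, 4 carry a member's name in the KO files alone, and probes were matched by identifier.

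KO ratios were tested against 0 with limma (lmFit, eBayes, 1 residual and 6.79 prior degrees of freedom) and Benjamini-Hochberg adjustment over all genes. These p-values rest on 2 pairs of mice. With more prior than residual degrees of freedom, the spread used for a gene comes mostly from a fit over all genes. The fit with a dye term also used the Axin2 arrays, technical repeats of 1 pair of pools, for its dye term and residual spread. The test was checked on simulated data, where unchanged genes were among the calls at a share that varied between draws and could exceed the threshold, so an adjusted p is approximate here. Members, lists and marker genes were chosen with earlier results of these data known. All members are named, and of each pathway list the genes past 1.5-fold or up to 4 with the largest means, except 1 that is not reported here. The number of arrays limits the precision. Alternatives were other ratios, background fits, offsets, centring, filters, probe rules, thresholds and a dye term.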

Additional observations from a re-analysis of the deposited data

How the results depend on the processing

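Of 138 member values in the *Rspo3* KO recomputed under the alternatives, 133 kept their direction. The other 5 were *Egfr* under median centring, at 0.00071, and 4 values with a pair left out, of *Spry2* (-0.44, pair 2 alone) and of *Egfr*, *Erbb3* and *Ereg* (0.10, 0.01 and -0.04, pair 1 alone). In the sorted cells 113 of 126 kept their direction, and the 13 that did not were of *Dusp16*, *Erbb3*, *Spry2* and *Egfr*. Both shares include settings that returned the main means, so they do not measure robustness. These were the other filters on dim probes, leaving out saturated spots and, in the KO, the dye term. The series table repeated the software's ratios. *Dusp16*, selected on its rise in the KO, gave 13 of the KO values. With a dye term over 4 arrays, 2 members and 1 pathway gene passed limma's adjusted p of 0.05 in the KO, and with an offset of 16, 1 pathway gene did, in place of 0. The number of all genes called was 35, and between 0 (no filter on dim probes) and 232 (dye term) under the alternatives, with 707 at an unadjusted limma p under 0.05. At 2-fold, 1 member passed in each experiment and 3 pathway genes in the sorted cells. Counts of KO members that passed leave out *Dusp16*, whose first probe lay past 2-fold there with a mean of 2.45. The software's ratios, the series table and the error-weighted ratios each gave 15 pathway genes past 1.5-fold in the sorted cells, against 6. Median centring gave 0 members and 0 pathway genes there. It left the Cy5 channel of bright spots above Cy3 by a median of 0.67 to 1.46 on the 4 arrays, and moved the median ratio of all genes to 0.76 and -0.75 on the Axin2 arrays and to 0.55 and -0.52 on the KO arrays. With 1 array left out, the counts were 2 to 3 members in the KO (*Dusp6* with *Hbegf* from pair 2 alone, and *Areg*, *Dusp6* and *Spry2* from pair 1 alone), 2 to 3 in the sorted cells (*Erbb2* added from array 1) and 5 to 8 pathway genes there, and the mean log2 ratio ranged from 0.55 to 1.47 for *Areg*, from 0.18 to 0.88 for *Hbegf* and from -0.44 to 1.12 for *Spry2* in the KO. The KO test is itself paired, since each array holds 1 pair of mice and its ratio was tested against 0, and no fit without the pairing was run.

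With 2 pairs of mice, 1 residual degree of freedom and dyes exchanged between the pairs, a difference between pairs cannot be told apart from a dye effect in the KO. The sorted cells have no replicate. Probes below background have no usable level.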
